A study of Mus musculus with 16 samples.

Results

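The CC chemokines described here were the 10 genes Ccl2, Ccl5, Ccl6, Ccl7, Ccl8, Ccl11, Ccl17, Ccl20, Ccl22 and Ccl24, chosen by symbol as CC ligands that attract monocytes, eosinophils and T cells, out of 23282 rows in the count tables of mouse dorsal skin. All 10 genes had counts, and all 10 passed the low-count filter. RNA was measured by QuantSeq, which counts 1 read near the 3′ end of a transcript, in 16 wild-type male C57BL/6N mice that had been bought at 3 weeks of age, with 4 mice and 1 library per mouse in each of 4 groups. All mice had 1 week of adaptation before the diets began. Control mice ate normal chow. Low AhR mice ate for 12 weeks a diet poor in ligands of the aryl hydrocarbon receptor (AhR), a transcription factor that senses dietary and environmental small molecules. They were also kept on paper bedding, so diet and bedding cannot be told apart. Low AhR + AD mice ate this diet and, after its first 2 weeks, received 1% 2,4-dinitrochlorobenzene (DNCB) on the back 2 times a week for 10 weeks, a hapten that gives a contact dermatitis used as a model of atopic dermatitis (AD). Low AhR + AD + BJ mice were treated likewise and were given Bojungikgi-tang (BJIKT), a herbal water extract, at 1 g per kg per day by gavage for 10 weeks. A vehicle for DNCB or for the gavage in the other groups is not given in the sources used here, and no group combined DNCB with normal chow, so the effect of DNCB was measured on the low ligand diet alone.

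Chemokines are small secreted proteins that guide leukocytes along a gradient by binding receptors coupled to G proteins. In CC chemokines the first pair of conserved cysteines stands side by side. In skin they are made by keratinocytes, fibroblasts, macrophages and Langerhans cells. Ccl2 and Ccl7 draw monocytes through Ccr2, mouse Ccl8 binds Ccr8, Ccl6 acts through Ccr1, and Ccl5 binds Ccr1 and Ccr3. Ccl11 and Ccl24 are eotaxins that call eosinophils through Ccr3. Ccl17 and Ccl22 share Ccr4, a receptor of skin-homing T cells, and Ccl20 is the ligand of Ccr6.

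Adjacent cysteine codons, a pair of which defines the family, stand in the coding sequences of the 10 genes. The stretches below, read from the GENCODE M21 transcripts of GRCm38, are 30 bases long. They show in capitals the first 2 adjacent cysteine codons of each coding sequence. They are ordered as the results are.

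Ccl7: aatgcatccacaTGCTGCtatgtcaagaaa
Ccl2: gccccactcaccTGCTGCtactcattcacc
Ccl8: gctccagtcaccTGCTGCtttcatgtacta
Ccl6: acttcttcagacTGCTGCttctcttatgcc
Ccl5: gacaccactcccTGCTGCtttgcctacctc
Ccl24: gtagcctgcgcgTGTTGCatcttccccata
Ccl11: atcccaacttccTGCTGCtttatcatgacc
Ccl17: gtaggccgagagTGCTGCctggattacttc
Ccl22: gaagacagtatcTGCTGCcaggactacatc
Ccl20: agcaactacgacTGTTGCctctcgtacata

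In 8 genes this first pair was written TGCTGC, and in Ccl20 and Ccl24 it was TGTTGC. In Ccl24 it began at base 55 of the coding sequence, against bases 94 to 148 in the other genes. Whether the pair shown for Ccl24 is the one that defines the family was not checked. The coding sequences were 91 to 148 codons long without the stop codon. Ccl2, Ccl7, Ccl11 and Ccl8 lie in this order within 1 stretch of chromosome 11 (GRCm38), with Ccl2 at chr11:82035571-82037453 and Ccl7 at chr11:82045712-82047525, both on the plus strand. Ccl5 (chr11:83525778-83530518) and Ccl6 (chr11:83587882-83593087) follow on the minus strand of the same chromosome. Ccl22 (chr8:94745590-94751699) and Ccl17 (chr8:94810453-94812036) both lie on the plus strand of chromosome 8. Ccl20 lies at chr1:83116766-83119167 and Ccl24 at chr5:135569937-135573049. All are protein-coding, with 3 exons in the main transcript except Ccl6 and Ccl24, which have 4. In the last 300 bases of each of the 10 transcripts, 0 of 251 words of 50 bases were found in another gene's transcripts.

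RefSeq promoters (GRCm38.p6) matched 5 of the 10 genes. The 250 bases before the start are printed for Ccl8, Ccl17 and Ccl20, the 3 genes in which a searched motif was found. Capitals mark the motifs.

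Ccl8 (chr11:82114935-82115184, plus strand): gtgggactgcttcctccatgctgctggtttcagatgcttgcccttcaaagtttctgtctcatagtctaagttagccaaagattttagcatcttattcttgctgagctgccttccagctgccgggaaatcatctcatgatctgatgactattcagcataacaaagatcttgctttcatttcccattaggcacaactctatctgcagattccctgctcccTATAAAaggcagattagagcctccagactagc
Ccl17 (chr8:94810203-94810452, plus strand): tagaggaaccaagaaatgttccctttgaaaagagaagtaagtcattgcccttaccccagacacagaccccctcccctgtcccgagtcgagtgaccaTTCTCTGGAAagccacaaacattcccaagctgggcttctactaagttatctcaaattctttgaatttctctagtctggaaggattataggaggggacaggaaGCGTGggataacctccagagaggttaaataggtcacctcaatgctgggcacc
Ccl20 (chr1:83116516-83116765, plus strand): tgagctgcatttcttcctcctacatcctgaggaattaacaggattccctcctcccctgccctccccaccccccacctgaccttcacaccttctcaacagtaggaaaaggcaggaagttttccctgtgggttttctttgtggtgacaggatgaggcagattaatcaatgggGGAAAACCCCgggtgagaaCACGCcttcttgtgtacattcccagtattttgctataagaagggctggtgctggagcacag

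The promoters of Ccl17 and Ccl20 each held GCGTG, the core of the AhR response element, at 52 to 48 and at 61 to 57 bases before the start, the latter on the reverse strand. This word was present in 28.2% of 32851 promoter windows, so its presence is common. Ccl17 also held a STAT6 motif (TTCNNNNGAA) at 154 to 145 bases before the start, which 5.85% of the windows held. Ccl20 held an NF-kB motif on the reverse strand at 80 to 71 bases before the start, against 3.9% of windows, and Ccl8 a TATA box (TATAAA) at 32 to 27 bases before the start, against 12.4%. The AP-1 motif TGANTCA, in 6.75% of windows, was in none of the 5 promoters. None of the 5 motifs, searched on both strands, was found in the windows of Ccl6 and Ccl22. These matches describe letters only.

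Levels are CPM, the counts as a share of each library's total scaled to one common depth with TMM factors, and they are compared between groups for 1 gene at a time. Library totals were 7080508 to 8773876 counts in the mice without DNCB and 10614393 to 13467477 in the mice with it, so depth and DNCB cannot be told apart, and 3 counts, the most a count of 0 allows, were worth 0.229 to 0.406 CPM. Replicate 1 of Low AhR + AD stood apart. Of the genes predicted from the other libraries of its group at 20 to 40 counts, 38.2% were absent in it. In any other library, predicted likewise from its own group, at most 13.6% were absent. It was the lowest library of its group for 8 of the 10 chemokines and held 0 counts of 5 of them. Values of the chemokines in comparisons with this group are therefore followed by those without it where they moved. Replicate 1 of Low AhR + AD + BJ held the highest level of all 16 libraries for Ccl2, Ccl6, Ccl7 and Ccl8. In bulk skin, fewer cells of a type and less RNA per cell cannot be told apart.

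**Figure D1:**
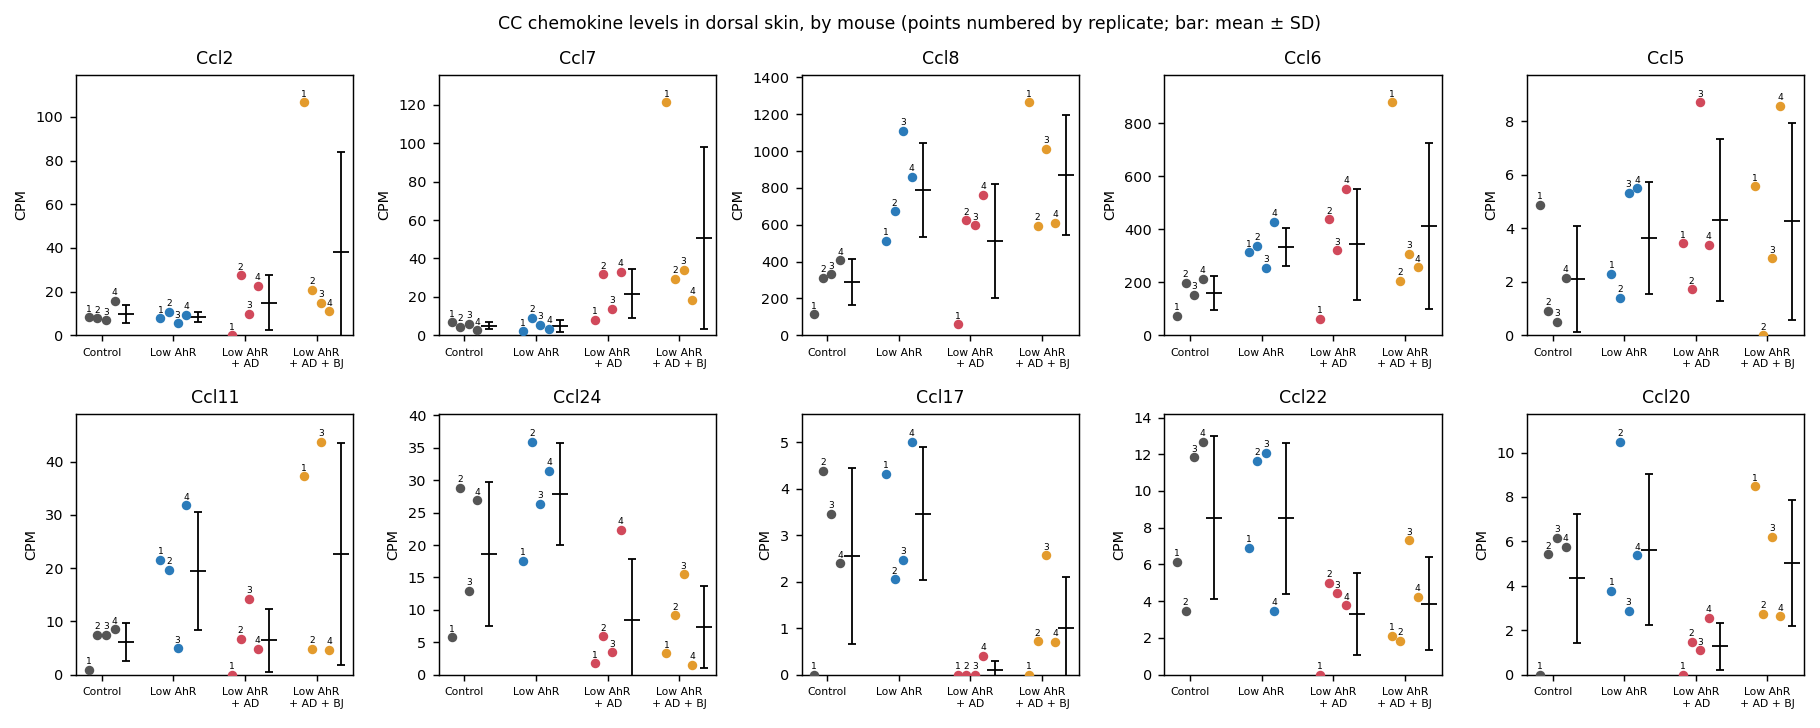
Level in CPM of each of the 10 CC chemokines (y axis, linear from 0) in the 4 mice of each group (x axis), with points numbered by replicate and a bar for the mean ± SD, cut at 0. The Ccl7 points of both DNCB groups lie mostly above those of the other groups, the Ccl17 points of Low AhR + AD are at or near 0, and replicate 1 of Low AhR + AD + BJ is highest for Ccl2, Ccl7, Ccl8 and Ccl6.

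The first comparison asked how DNCB dermatitis changed the chemokines on the low ligand diet. Ccl7, a monocyte attractant, rose 4.37-fold from Low AhR to Low AhR + AD. It was the 1 member of 10 called by edgeR's quasi-likelihood test (adjusted p = 0.0279), and 0 members were called lower, against 6.42% of all 14854 tested genes called higher and 6.21% called lower (12.6% in either direction). Ccl17 and Ccl20 were lower in every Low AhR + AD mouse than in any Low AhR mouse, so 2 of 10 members did not overlap downwards, where 9.85% of all genes did, and 0 did not overlap upwards, where 8.92% of all genes did. The median log2 fold change of the 10 members was -1.0, against 0.04 over all tested genes, with 4 members higher and 6 lower. With so few members, these shares are close to the background or rest on 1 or 2 genes.

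Ccl7 was the clearest of the monocyte attractants. It measured 6.67, 4.26, 5.92 and 2.63 CPM in the Control mice and 2.03, 9.08, 5.33 and 3.34 CPM in the Low AhR mice. In Low AhR + AD it was 7.93, 31.7, 13.8 and 33.1 CPM, and in Low AhR + AD + BJ 121, 29.5, 34 and 18.5 CPM. Thus 3 of 4 Low AhR + AD mice lay above all Low AhR mice, the fourth (replicate 1) lay within their range, and all 4 Low AhR + AD + BJ mice lay above both groups without DNCB. The log2 fold change from Low AhR to Low AhR + AD was 2.13 ± 0.61 (SE; edgeR, adjusted p = 0.0279). Without Low AhR + AD replicate 1 it was 2.40 ± 0.59 (edgeR, adjusted p = 0.0149). The call did not hold at every removal of a library: it passed in 3 of 8 such fits (log2 fold change 1.85 to 2.60), and edgeR's adjusted p reached 0.086 without Low AhR replicate 1 and was 0.0734 without Low AhR + AD replicate 4. Under limma voom the adjusted p was 0.185, and with only the 8 libraries compared it was 0.0619 (edgeR).

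Set against normal chow, where diet and DNCB act together, Ccl7 rose by 2.15 ± 0.61 on the log2 scale in Low AhR + AD (edgeR, adjusted p = 0.0169), with no overlap between the groups. It was again the 1 member called, among 12.3% of all genes called higher and 9.47% called lower (21.8% in either direction), and the 1 member without overlap upwards, where 12.9% of all genes had none (11.8% downwards, with 0 members). Without Low AhR + AD replicate 1 the members called were 3, Ccl6, Ccl7 and Ccl8, all higher, beside 12.6% of all genes higher and 10.6% lower. Without Low AhR + AD replicate 4, Ccl7 was not called (log2 fold change 1.87 ± 0.63, edgeR, adjusted p = 0.0516). Ccl17 and Ccl24 were then called lower, beside 7.05% of all genes called lower and 9.85% higher. Without Control replicate 4, edgeR's adjusted p of Ccl7 was 0.0537. In the mice given DNCB and BJIKT, Ccl7 rose 10.3-fold over Low AhR (log2 fold change 3.36 ± 0.63, edgeR, adjusted p = 0.00542), the 1 member called where 3.64% of all genes were called higher and 3.12% lower (6.77% in either direction). This call held in all 8 fits that left out 1 library, with log2 fold changes of 2.46 to 3.83, the lowest without replicate 1 of the BJIKT group. Under limma voom the adjusted p of Ccl7 was 0.0698 there and 0.164 in Low AhR + AD against Control, so neither call held. The comparisons of the 2 DNCB groups share the Low AhR mice.

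Ccl2, the main ligand of Ccr2, lies next to Ccl7 in the genome and did not pass the test in any comparison when all libraries were fitted. Control mice had 8.21, 7.75, 6.91 and 15.9 CPM, and Low AhR mice 7.70, 10.9, 5.46 and 9.30 CPM. The Low AhR + AD mice had 0, 27.4, 9.71 and 22.7 CPM, and the Low AhR + AD + BJ mice 107, 20.8, 14.8 and 11 CPM. Low AhR + AD thus held both the lowest library of all and 2 mice above every Low AhR mouse. Its log2 fold change against Low AhR was 0.84 ± 0.89 (edgeR, adjusted p = 0.579), or 1.25 ± 0.62 without replicate 1 (edgeR, adjusted p = 0.216). Every Low AhR + AD + BJ mouse lay above every Low AhR mouse, as did those of Ccl7, so 2 of 10 members did not overlap upwards, where 8.91% of all genes did not. For Ccl2 the difference was 2.20 ± 0.92 on the log2 scale (edgeR, adjusted p = 0.163). It passed the test when Low AhR + AD replicate 1, a library of neither group, was left out of the shared fit (2.20 ± 0.60, edgeR, adjusted p = 0.025), and fell to 0.90 ± 0.88 without replicate 1 of the BJIKT group (edgeR, adjusted p = 0.65).

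Ccl8 and Ccl6, which skin macrophages express, had their lowest group mean in Control. Ccl8 measured 113, 312, 332 and 406 CPM in Control and 512, 673, 1111 and 859 CPM in Low AhR. In Low AhR + AD it was 58.4, 623, 596 and 763 CPM, and in Low AhR + AD + BJ 1264, 594, 1012 and 611 CPM. All Low AhR mice lay above all Control mice, and the Low AhR + AD mice split into replicate 1, below every other library of the study, and 3 mice within the range of Low AhR. The log2 fold change from Low AhR to Low AhR + AD was -0.63 ± 0.53 (edgeR, adjusted p = 0.472), and -0.26 ± 0.37 without replicate 1 (edgeR, adjusted p = 0.72).

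Ccl6 measured 74.1, 197, 153 and 214 CPM in Control and 313, 338, 256 and 428 CPM in Low AhR. It was 62.2, 439, 320 and 553 CPM in Low AhR + AD and 879, 205, 308 and 257 CPM in Low AhR + AD + BJ. As for Ccl8, the diet groups did not overlap and replicate 1 of Low AhR + AD was the lowest library of all. The change with DNCB was 0.04 ± 0.52 on the log2 scale (edgeR, adjusted p = 0.969), and 0.39 ± 0.43 without replicate 1 (edgeR, adjusted p = 0.626).

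Ccl5, a chemokine of activated T cells and platelets, was low throughout. It measured 4.87, 0.904, 0.493 and 2.15 CPM in Control and 2.30, 1.41, 5.33 and 5.49 CPM in Low AhR. It was 3.43, 1.72, 8.70 and 3.37 CPM in Low AhR + AD and 5.56, 0, 2.88 and 8.57 CPM in Low AhR + AD + BJ. All 4 groups overlapped, and the DNCB change was 0.24 ± 1.00 on the log2 scale (edgeR, adjusted p = 0.905).

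Both eotaxins had a lower mean in Low AhR + AD than in Low AhR, and neither passed the test. Ccl24 measured 5.77, 28.8, 12.9 and 26.9 CPM in Control and 17.6, 35.9, 26.4 and 31.5 CPM in Low AhR. It was 1.75, 5.90, 3.42 and 22.3 CPM in Low AhR + AD and 3.28, 9.16, 15.5 and 1.51 CPM in Low AhR + AD + BJ. Replicate 4 was the 1 Low AhR + AD mouse inside the Low AhR range, and all 4 mice given BJIKT lay below that range. The log2 fold change was -1.74 ± 0.73 for Low AhR + AD against Low AhR (edgeR, adjusted p = 0.127). It was -2.91 ± 0.73 without Low AhR + AD replicate 4 and then passed (edgeR, adjusted p = 0.019), and -1.41 ± 0.71 without replicate 1 (edgeR, adjusted p = 0.225). For Low AhR + AD + BJ against Low AhR it was -1.91 ± 0.74 (edgeR, adjusted p = 0.129), and Ccl24 was the 1 member of 10 without overlap downwards there, where 8.19% of all genes had none.

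Ccl11 measured 0.898, 7.49, 7.52 and 8.49 CPM in Control and 21.6, 19.7, 4.94 and 31.8 CPM in Low AhR. It was 0, 6.72, 14.2 and 4.90 CPM in Low AhR + AD and 37.3, 4.88, 43.8 and 4.64 CPM in Low AhR + AD + BJ. Of the mice given BJIKT, replicates 1 and 3 lay above every other mouse of the study and replicates 2 and 4 lay within the Low AhR + AD range, and Low AhR replicate 3 lay within the Control range. The change with DNCB was -1.60 ± 0.97 on the log2 scale (edgeR, adjusted p = 0.297), and -1.18 ± 0.80 without replicate 1 of Low AhR + AD (edgeR, adjusted p = 0.382).

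Among the chemokines of T cell recruitment, Ccl17 had the largest difference. Control mice had 0, 34, 28 and 20 counts and Low AhR mice 32, 16, 19 and 42. In Low AhR + AD the counts were 0, 0, 0 and 5 although these libraries were deeper, and in Low AhR + AD + BJ they were 0, 7, 33 and 7. In CPM, Low AhR ranged from 2.05 to 5.01 and Low AhR + AD from 0 to 0.401, with no overlap. The log2 fold change was -4.95 ± 1.63 and did not pass (edgeR, adjusted p = 0.0535). It was -4.57 ± 1.72 without Low AhR + AD replicate 1 (edgeR, adjusted p = 0.0966). Ccl17 did pass under DESeq2 (-5.14, adjusted p = 0.00395), under limma voom (-5.53, adjusted p = 0.0301) and without Low AhR + AD replicate 4 (-8.07 ± 2.11, edgeR, adjusted p = 0.0265), where the 3 mice left are all at 0 and the fitted value depends on the prior count. Against Control the log2 fold change was -4.52 ± 1.60 (edgeR, adjusted p = 0.0514), or -4.16 ± 1.69 without Low AhR + AD replicate 1 (edgeR, adjusted p = 0.0867), and the groups overlapped because Control replicate 1 also held 0 counts.

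Ccl22, which binds the same receptor as Ccl17, measured 6.16, 3.49, 11.8 and 12.7 CPM in Control and 6.89, 11.6, 12.1 and 3.46 CPM in Low AhR. It was 0, 5.0, 4.43 and 3.77 CPM in Low AhR + AD and 2.10, 1.83, 7.31 and 4.23 CPM in Low AhR + AD + BJ. Low AhR replicate 4 fell within the range of the DNCB mice, so the groups overlapped. The change with DNCB was -1.37 ± 0.84 on the log2 scale (edgeR, adjusted p = 0.307), and -0.96 ± 0.61 without replicate 1 (edgeR, adjusted p = 0.344).

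Ccl20 measured 0, 5.42, 6.17 and 5.74 CPM in Control and 3.78, 10.5, 2.86 and 5.37 CPM in Low AhR. It was 0, 1.48, 1.09 and 2.57 CPM in Low AhR + AD and 8.48, 2.75, 6.22 and 2.62 CPM in Low AhR + AD + BJ. Every Low AhR + AD mouse lay below every mouse of Low AhR and of Low AhR + AD + BJ, the nearest values being 2.57 against 2.62 CPM. The log2 fold change from Low AhR to Low AhR + AD was -2.12 ± 1.07 (edgeR, adjusted p = 0.203), or -1.72 ± 0.95 without replicate 1 (edgeR, adjusted p = 0.271).

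**Figure D2:**
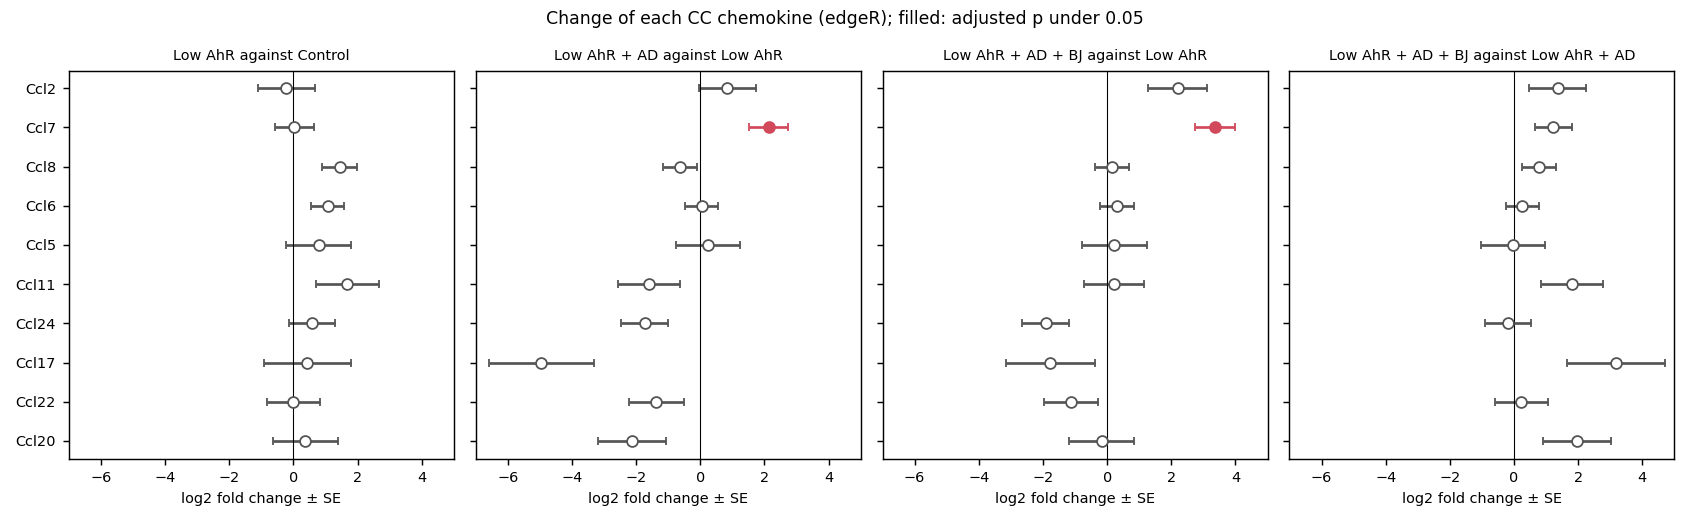
Log2 fold change ± SE (x axis) of each CC chemokine (y axis) in 4 comparisons, from edgeR with all 16 libraries in 1 model, with filled points for an adjusted p under 0.05. Ccl7 is the filled point in both comparisons of DNCB mice with Low AhR (2.13 and 3.36), and no point is filled for the diet alone or for BJIKT.

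The second comparison asked what BJIKT changed in mice with DNCB dermatitis. No chemokine of the 10 passed the test. By edgeR 0 of 10 members and 0 of 14854 genes were called (0% of all genes in either direction), with 1 member and 1405 genes at an unadjusted p under 0.05. DESeq2 called 0 members and 17 genes, and limma voom 0 members and 0 genes. Of the members, 8 were higher and 2 lower, with a median log2 fold change of 1.0, against 0.00 over all tested genes. Without Low AhR + AD replicate 1, edgeR again called 0 members, beside 0% of all genes in either direction. Ccl5, Ccl6, Ccl22 and Ccl24 were then lower and the other members higher, so the count of 8 higher rests partly on that library. Ccl20 was the 1 member without overlap upwards, where 2.42% of all genes had none (2.65% downwards, with 0 members), and its log2 fold change was 1.96 ± 1.06 (edgeR, adjusted p = 0.559).

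The values for BJIKT moved with single libraries. Ccl7 differed by 1.23 ± 0.58 on the log2 scale (edgeR, adjusted p = 0.525), and by 0.34 ± 0.53 without replicate 1 of the BJIKT group (edgeR, adjusted p = 0.923). Ccl2 differed by 1.36 ± 0.89 (edgeR, adjusted p = 0.635), and by 0.06 ± 0.87 without that library (edgeR, adjusted p = 0.995). Ccl6 went from 0.26 ± 0.52 to -0.42 ± 0.49 (edgeR, adjusted p = 0.897 and 0.886). Without that 1 mouse the difference was thus smaller for Ccl7 and Ccl2 and changed sign for Ccl6. Leaving out Low AhR + AD replicate 1 also moved these 3 genes, as given below. Ccl8 differed by 0.77 ± 0.53 (edgeR, adjusted p = 0.654), and by 0.40 ± 0.37 without Low AhR + AD replicate 1 (edgeR, adjusted p = 1). Ccl11 differed by 1.81 ± 0.97 and Ccl17 by 3.17 ± 1.53 (edgeR, adjusted p = 0.556 and 0.527), Ccl17 from 5 counts in all Low AhR + AD mice. Leaving out 1 library at a time moved Ccl17 from 2.10, without replicate 3 of the BJIKT group, to 6.29, without Low AhR + AD replicate 4, and Ccl11 from 1.27, without replicate 3 of the BJIKT group, to 2.55, without Low AhR + AD replicate 3. Without Low AhR + AD replicate 1 the differences were 0.95 for Ccl2, 0.96 for Ccl7, -0.11 for Ccl5, -0.08 for Ccl6, 1.40 for Ccl11, 2.78 for Ccl17, 1.55 for Ccl20, -0.19 for Ccl22 and -0.52 for Ccl24. With all libraries, the other 3 members, Ccl5, Ccl22 and Ccl24, lay between -0.18 and 0.23. This comparison shares the Low AhR + AD mice with that of DNCB, so the 2 sets of values are not independent.

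**Figure D3:**
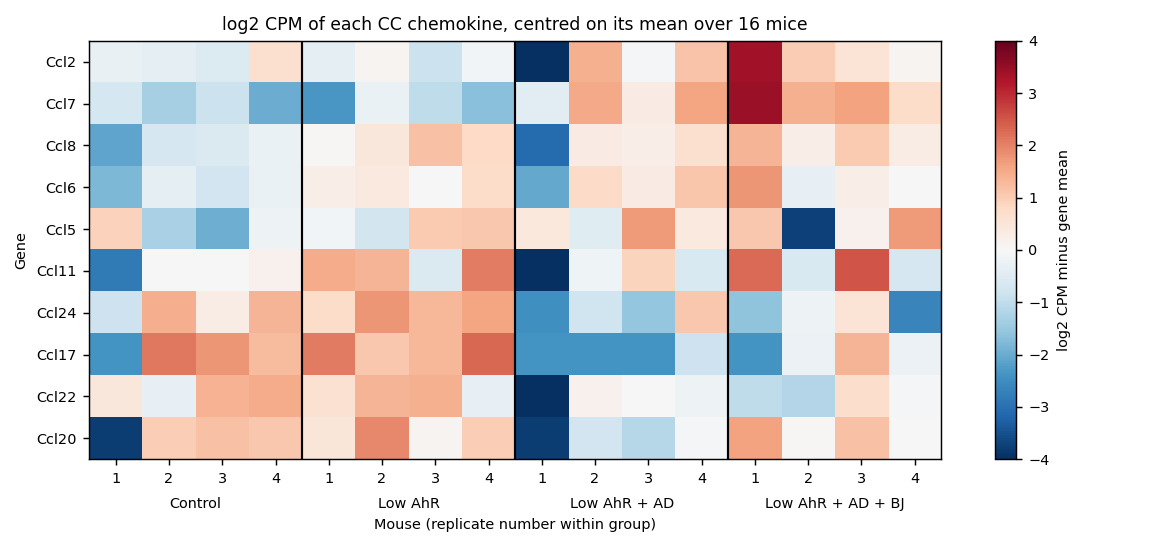
Log2 CPM (prior count 2) of each CC chemokine (rows) in the 16 mice (columns, by group and replicate number), centred on the gene's mean, with the colour scale cut at -4 and 4. Replicate 1 of Low AhR + AD is blue for nearly all genes, and replicate 1 of Low AhR + AD + BJ is dark red for Ccl2 and Ccl7.

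The third comparison asked what the low ligand diet changed without DNCB. Ccl6 and Ccl8 were higher in all 4 Low AhR mice than in any Control mouse, and no member passed the test. By edgeR 0 of 10 members and 0 of 14854 genes were called (0% in either direction), with 1 member, Ccl8, and 2031 genes at an unadjusted p under 0.05, while DESeq2 called 0 members and 491 genes and limma voom 0 and 0. The 2 members without overlap upwards stood beside 5.68% of all genes, and 0 members beside 5.63% downwards. The median log2 fold change of the members was 0.51, against 0.03 over all genes. Ccl8 differed by 1.44 ± 0.54 on the log2 scale (edgeR, adjusted p = 0.222) and Ccl6 by 1.06 ± 0.53 (edgeR, adjusted p = 0.387), a 2.71-fold and a 2.09-fold difference. When Low AhR + AD replicate 1, a library of neither group, was left out of the shared fit, the Ccl8 difference was 1.43 ± 0.35 and passed (edgeR, adjusted p = 0.0329), as did 2.11% of all genes upwards and 1.05% downwards. When Control replicate 1, the lowest Control mouse for both genes, was left out too, 0 members were called. Of all genes, 0.365% were then called upwards and 0.159% downwards. Ccl11 was higher in 3 of 4 Low AhR mice than in any Control mouse (1.68 ± 0.98, edgeR, adjusted p = 0.48), and the remaining 7 members lay between -0.22 and 0.78.

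Among 14 other CC ligands, of which 12 were tested, 2 fell from Low AhR to Low AhR + AD and 0 rose, beside 6.21% of all genes called lower and 6.42% higher, with a median log2 fold change of -0.60 against 0.04 over all tested genes. They were Ccl27a and Ccl27b, copies of the keratinocyte chemokine that binds Ccr10. Ccl27a was 1894, 2137, 1636 and 753 CPM in Low AhR and 728, 315, 477 and 456 CPM in Low AhR + AD, with no overlap, and fell by 1.70 ± 0.34 on the log2 scale (edgeR, adjusted p = 0.00408). It was called lower also in Low AhR + AD + BJ against Low AhR (-1.39 ± 0.34, edgeR, adjusted p = 0.0188), but not when replicate 1 of the BJIKT group was left out. Ccl27b fell by 2.66 ± 0.43 (edgeR, adjusted p = 0.00105). The 2 genes share reads: 41.0% of the words of 50 bases in the last 300 bases of Ccl27a, and 97.2% of those of Ccl27b, occur in another gene, so their counts are uncertain as separate values. Ccl4, a chemokine made by activated macrophages and T cells, had 3, 0, 0 and 0 counts in Control, 0, 0, 7 and 0 in Low AhR, 70, 37, 49 and 50 in Low AhR + AD, and 121, 17, 18 and 21 in Low AhR + AD + BJ. It rose in Low AhR + AD against Control (edgeR, adjusted p = 0.0208), by a ratio of pooled levels of 43.4 with an exact 95% counting interval of 14.6 to 212, and against Low AhR the adjusted p was 0.0664 (edgeR), with no overlap. By edgeR 0 of these 12 ligands were called for BJIKT or for the diet alone, with 0 at an unadjusted p under 0.05 in either, and leaving out Low AhR + AD replicate 1 changed none of these counts.

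Of 14 CC receptors and scavengers, 12 were tested. From Low AhR to Low AhR + AD, 1 fell and 0 rose, a share near the 6.21% of all genes called lower, and their median log2 fold change was -1.10. The 1 was Ackr4, a scavenger of homeostatic chemokines, which was 124, 151, 65.5 and 35.9 CPM in Low AhR and 16.7, 30.1, 37.8 and 31.9 CPM in Low AhR + AD and fell by 1.69 ± 0.35 on the log2 scale (edgeR, adjusted p = 0.00517). Against Control, Ackr4 fell likewise (-1.67 ± 0.35, edgeR, adjusted p = 0.00285), while Ccr1 (3.10 ± 0.74, edgeR, adjusted p = 0.00644) and the eotaxin receptor Ccr3 (4.63 ± 1.34, edgeR, adjusted p = 0.0195) rose. In that comparison 12.3% of all genes were called higher and 9.47% lower. Ccr3 held 0, 0, 4 and 0 counts in Control against 54, 63, 64 and 45 in Low AhR, without overlap, and this diet difference passed (edgeR) when Low AhR + AD replicate 1 was left out of the fit but not with it (5.73 ± 1.38, edgeR, adjusted p = 0.0806). The receptor of Ccl8, Ccr8, held 0 counts in all 16 libraries, which allows up to 3 counts in each. Ccr2, the receptor of Ccl2 and Ccl7, was 13.4, 49.5, 39.1 and 43.2 CPM in Low AhR + AD and 43.5, 32.5, 98.4 and 88.0 CPM in Low AhR, with overlap, and replicate 1 of Low AhR + AD was again the lowest. Leaving out that library changed none of the receptor calls in the comparisons of Low AhR + AD with Low AhR and with Control.

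The list of possible upstream signals held 13 cytokines, and their action on these chemokines was not tested. Of these, 5 were tested for a change in level, and Il1b was the 1 called. It was 5.27, 6.65, 20.9 and 5.6 CPM in Low AhR and 27.2, 26.5, 40.4 and 82.7 CPM in Low AhR + AD, with no overlap. It rose by 2.20 ± 0.61 on the log2 scale (edgeR, adjusted p = 0.0245), where 6.42% of all genes were called higher, and was not called without Low AhR + AD replicate 4. In Low AhR + AD + BJ it was 167, 124, 14.9 and 51.9 CPM and rose over Low AhR by 3.22 ± 0.63 (edgeR, adjusted p = 0.00672), where 3.64% of all genes were called higher. Like Ccl7, it was highest in replicate 1 of the BJIKT group. Il17a, Il17f and Il22 held 0 counts in all 16 libraries, and Il4 and Ifng were found in 1 library each, with 4 and 5 counts, so a difference in these T cell cytokines was not detectable at this depth.

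**Figure D4:**
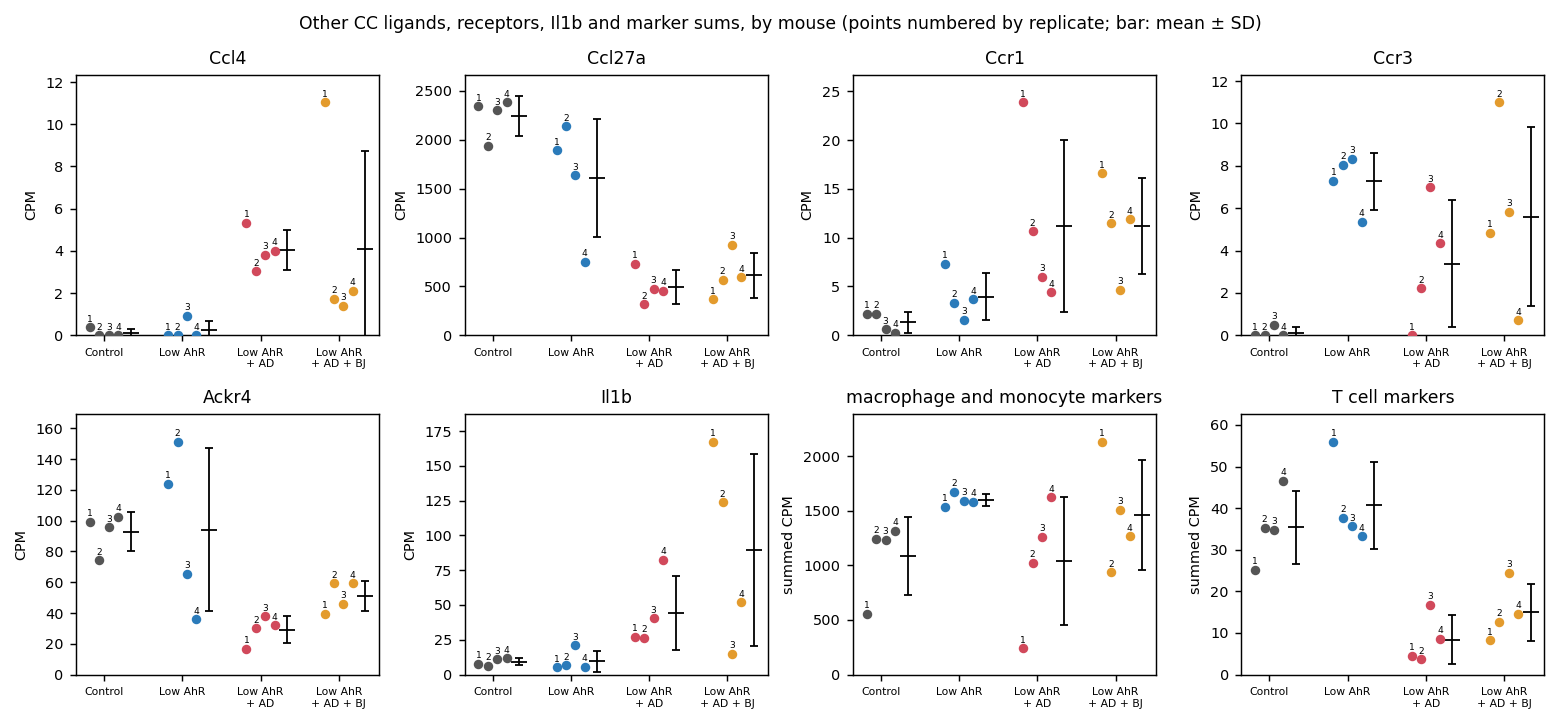
Level in CPM (y axis, linear from 0) of other CC ligands, receptors, a scavenger and Il1b, and summed CPM of macrophage and T cell markers, in the 4 mice of each group (x axis), numbered by replicate, with the mean ± SD cut at 0. Ccl27a and the T cell markers are low in both DNCB groups, Ccl4 and Il1b are higher there in most mice, and the macrophage markers are lowest in replicate 1 of Low AhR + AD (241 CPM) and highest in replicate 1 of Low AhR + AD + BJ (2133 CPM).

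Markers of the cells that make or answer these chemokines moved with several of the results, and their part in them was not tested. The 11 macrophage and monocyte markers summed to 557 to 1320 CPM in Control, 1540 to 1675 in Low AhR, 241 to 1623 in Low AhR + AD and 938 to 2133 in Low AhR + AD + BJ. None was at 0 in a whole group, all 11 were higher in Low AhR than in Control, 4 of them without overlap, beside 5.68% of all genes, and edgeR called 0 of 11 in any comparison, with 0 at an unadjusted p under 0.05 for the diet and 2, Cd163 and Ly6c2, for DNCB against Low AhR, both at a lower level in Low AhR + AD. The 9 T cell markers found in the files summed to 33.3 to 56.0 CPM in Low AhR and 3.69 to 16.7 CPM in Low AhR + AD. All 9 were lower and 2, Cd3e and Cd3g, were called lower, where 6.21% of all genes were. The 8 eosinophil markers, which include Ccr3, summed to 23.6 to 55.4 CPM in Control, 102 to 140 CPM in Low AhR and 0.0763 to 29.3 CPM in Low AhR + AD, with Epx at 0 in these 3 groups. In Low AhR + AD + BJ they summed to 15.9 to 118 CPM. Ear1 and Ear2, 2 of the 6 tested, were called lower in Low AhR + AD than in Low AhR, where 6.21% of all genes were. Against Control, 3 of the 6 tested eosinophil markers, Siglecf, Ear6 and Ccr3, were called higher and 1, Ear1, lower, with a median log2 fold change of 1.79. Of all genes, 12.3% were called higher there and 9.47% lower. From Low AhR + AD to Low AhR + AD + BJ all 6 tested eosinophil markers were higher and 0 were called, beside 0% of all genes. Their median log2 fold change was 1.44, and Low AhR + AD replicate 1 was the library at 0.0763 CPM. Of 8 dendritic and Langerhans cell markers, 7 were lower with DNCB than in Low AhR. Of these 1, Cd209a, was called (-3.03 ± 0.88, edgeR, adjusted p = 0.0301), beside 6.21% of all genes called lower.

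Marker levels of other skin cells and tissues differed as well. The 6 keratinocyte markers summed to 5286 to 6432 CPM in Low AhR and 7345 to 13442 CPM in Low AhR + AD. Of these, Krt5 and Krt14 were called higher, where 6.42% of all genes were. In Low AhR + AD against Low AhR, edgeR called lower all 7 skeletal muscle markers, 4 of 6 adipocyte markers and 2 of 6 fibroblast markers, where 6.21% of all genes were called lower. It called higher 2 of 4 tested neutrophil markers, Cxcr2 and Mmp8, and 1 of 6 mast cell markers, Tpsb2, where 6.42% of all genes were called higher. The 7 hair follicle markers summed to 92.0 to 8365 CPM in Low AhR and 6084 to 20660 CPM in Low AhR + AD, with 0 called, and of 5 endothelial markers 0 were called.

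Patterns most like those of the chemokines were found by the mean absolute difference of centred log2 CPM over the 16 libraries, for the 6 members that reached a group mean of 10 CPM. For Ccl8 they were Tyrobp (0.23) and Pdcd2l (0.32), beside a median of 1.01 over all tested genes. For Ccl6 they were Fth1 (0.25) and the complement gene C1qc (0.27), beside 0.92. The nearest genes to Ccl2 were Gch1 (0.57) and C1qtnf7 (0.59), and to Ccl7 Pdss1 (0.56) and C330022C24Rik (0.60), beside medians of 1.24 and 1.45. Ccl11 was nearest to Cd48 (0.62) and Plat (0.65), and Ccl24 to Clic5 (0.57) and Clec3b (0.58), beside 1.49 and 1.34. The libraries share depth and tissue makeup, and these values are descriptions.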

How the data were processed

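RNA from dorsal skin of 16 mice, 4 in each of 4 groups, was sequenced with the QuantSeq 3′ mRNA kit. The deposited files hold, for each library, a gene symbol and a whole-number count per gene, not normalised. The submitters' processing notes name Bowtie2, bedtools and the build mm10, and the versions, annotation and strand setting of the counting are not given in the sources used here. Each file has 23282 rows, of which 0 lack a name, and 0 columns of other samples were present.

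Groups were taken from the treatment labels. From the counts, genes passing filterByExpr (minimum count 10, minimum total 15) were kept, 14854 in all, and fitted in edgeR 4.0.16 (R 4.3.3) with TMM factors and the quasi-likelihood test, all 16 libraries in 1 model with 4 groups. P-values were adjusted by Benjamini-Hochberg over all tested genes, with a threshold of 0.05. The 5 comparisons of groups share libraries and are not independent. Log2 CPM used a prior count of 2. Levels are given per library or as a range. Intervals and floors of 3 counts cover counting error only. With 4 mice against 4, the smallest exact two-sided permutation p is 0.0286. The labels and methods describe separate mice, and no pair of replicates agreed within sampling noise by a chi-square test (chi-square per degree of freedom 16.4 to 285). Steps were tested on simulated counts.

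The 10 members and all gene lists were chosen with earlier results of these data known. All members are named, as are other CC ligands, receptors and cytokines of the upstream list that passed the test in some comparison. Ccr2, Ccr8, the cytokines at or near 0 and the single markers named were chosen after their values were seen. Alternatives were RLE factors, DESeq2 1.42.0, limma voom (limma 3.58.1), all genes kept, a stricter filter (10 or more counts in each library), only the libraries compared, library sizes without Rn45s, the replicate number as a block and each library left out in turn.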

Additional observations from a re-analysis of the deposited data

Results flagged for a closer look

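In 5 of the 40 sets of 4 mice formed by 10 chemokines and 4 groups, 1 mouse lay far from the other 3 by Dixon's test on log2 CPM, where chance gives about 1 in 20. The log2 scale spreads low values more than CPM does. The test was not run on CPM, where other mice could be flagged. In 4 of them the mouse was low. Ccl8 was 58.4 CPM in Low AhR + AD replicate 1, against 596 to 763 in the other mice of the group, and Ccl22 was 0 CPM in the same library, against 3.77 to 5.0. Ccl11 was 0.898 CPM in Control replicate 1, against 7.49 to 8.49, and Ccl20 was 0 CPM in that library, against 5.42 to 6.17. Ccl17 was 0.401 CPM in Low AhR + AD replicate 4, the highest of its group, where the other mice were at 0. With those mice tied, the test flags any value above 0, and this set counts among the 5 for that reason alone. Low AhR + AD replicate 1 also had the most absent genes and Control replicate 1 was the lowest library of its group for 6 of the 10 chemokines, and the part of the libraries in these values was not tested.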

How the results depend on the processing

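Of 437 values from alternatives other than leaving out 1 library, 404 kept their direction and side of the threshold, 4 lost the call, 11 gained it and 18 changed sign, and the cause was not tested. From Low AhR to Low AhR + AD, 2 members were called with DESeq2 and with limma voom and 0 with only the libraries compared (765 genes), since Ccl7 was lost under limma voom (2.07) and with those libraries (2.12), while Ccl17 gained the call with DESeq2 (-5.14) and limma voom (-5.53) and Ccl24 with limma voom (-2.37). Against Control, 2 members were called with RLE factors (Ccl17 -4.53) and DESeq2 (Ccl17 -4.70) and 0 with limma voom (Ccl7 1.98). For Low AhR + AD + BJ against Low AhR, DESeq2 called 2 members (Ccl24 -1.95) and 1676 genes, and limma voom 0 members (Ccl7 3.17). Over these alternatives, all genes called ranged over 765 to 2673 for Low AhR + AD against Low AhR. They ranged over 2351 to 3886 for Low AhR + AD against Control and 923 to 1802 for Low AhR + AD + BJ against Low AhR. DESeq2 called 17 genes for BJIKT and 491 for the diet, where a minimum of 10 counts in every library gave 35 and only the libraries compared 250. Signs changed under limma voom for Ccl2 (-1.17) and Ccl6 (-0.32) in Low AhR + AD against Low AhR, Ccl24 for BJIKT (0.10), Ccl7 for the diet (-0.088), Ccl2 (-1.35) and Ccl11 (-1.24) in Low AhR + AD against Control, and Ccl5 (-0.91) and Ccl11 (-0.11) in Low AhR + AD + BJ against Low AhR, and for Ccl22 for the diet with RLE factors (0.0070) and DESeq2 (0.0075).

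Replicate numbers did not pair the mice: over 24 same-numbered pairs the correlation of deviations was -0.0547 to 0.167, 3 were over 0.1, and 5 of 16 libraries correlated best with their own number. With the replicate block, 2 members were called from Low AhR to Low AhR + AD (Ccl17 -5.93, adjusted p = 0.0498) among 1689 genes, and counts of members in the other comparisons did not move. Signs changed for Ccl24 for BJIKT (0.20), Ccl22 for the diet (0.050), Ccl11 in Low AhR + AD against Control (-0.075), and Ccl5 (-0.20) and Ccl20 (0.24) in Low AhR + AD + BJ against Low AhR.

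2 alternatives were chosen after seeing the data. With Control replicate 1 and Low AhR + AD replicate 1 left out together, the diet called 79 genes. Low AhR + AD against Control then called 2 members (Ccl17 -4.56), beside 11.1% of all genes called higher and 9.35% lower. Low AhR + AD + BJ against Low AhR called 2 members (Ccl2 2.20) and 1802 genes. Signs changed for Ccl6 (-0.084) and Ccl22 (-0.19) for BJIKT and Ccl20 for the diet (-0.041). With Low AhR + AD replicate 1 alone out of the shared fit, the diet called 1 member (Ccl8 1.43) and 475 genes, and Low AhR + AD + BJ against Low AhR 2 members (Ccl2 2.20) and 1716 genes.

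Leaving out in turn each of the 8 libraries of the groups compared, members called ranged over 0 to 2 (1128 to 2015 genes) for Low AhR + AD against Low AhR, 0 to 0 (0 to 1 genes) for BJIKT, 0 to 0 (0 to 159) for the diet, 0 to 3 (2460 to 3486) for Low AhR + AD against Control and 1 to 1 (414 to 1469) for Low AhR + AD + BJ against Low AhR. Log2 fold changes crossed 0 for Ccl5 (-0.35 to 0.52) and Ccl6 (-0.28 to 0.39) in the first, for Ccl5 (-0.61 to 0.58), Ccl6 (-0.42 to 0.59), Ccl22 (-0.29 to 0.49) and Ccl24 (-0.84 to 1.00) in the second, for Ccl2 (-0.37 to 0.13), Ccl7 (-0.44 to 0.28), Ccl20 (-0.11 to 0.59) and Ccl22 (-0.26 to 0.26) in the third, for Ccl11 (-0.66 to 0.48) in the fourth, and for Ccl5 (-0.36 to 0.64), Ccl6 (-0.38 to 0.54), Ccl8 (-0.093 to 0.36), Ccl11 (-0.31 to 0.56) and Ccl20 (-0.54 to 0.33) in the fifth. Depth limits the low genes: Ccl17 in Low AhR + AD rests on 5 counts in all.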
